A study of Mus musculus with 16 samples.

Results

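Dendritic cells grown from mouse bone marrow were compared after 18 h with and without Lactobacillus acidophilus NCFM, and every gene that the array names was followed in that comparison. It rests on 5 arrays of the 16 in the series, 3 of NCFM cells and 2 of control cells, and on 18193 genes. The arrays were taken by their titles, so no measured value chose them. All cells came from bone marrow of C57BL/6 mice and had been cultured for 8 days with GM-CSF at 15 ng/ml. They were then kept at 10 ng/ml GM-CSF, alone as the control or with NCFM at 10 µg/ml, and messenger RNA was read on 1 array per sample. The other 11 arrays hold the same treatment and its controls at 4 h and 10 h. The study asked, by its title, about genes of virus defence and about Toll-like receptor 2. Whether replicates came from different mice or cultures is not stated in the labels, and the p-values cover the spread from sample to sample. That spread is not technical alone, since the arrays numbered 1 differed from the others in Xist and Y-linked genes, as given with the cell markers.

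Dendritic cells take up microbes, digest them and show the pieces to T cells. Cell wall lipoproteins of Gram-positive bacteria are sensed by Toll-like receptor 2, while nucleic acids are sensed by receptors in endosomes and the cytosol. Both routes reach NF-kB, which drives cytokine genes, and some reach the interferon regulatory factors, which drive interferon-beta. Secreted interferon then acts back on the cell through factors that bind an interferon-stimulated response element, and so switches on the antiviral genes. A maturing dendritic cell also raises co-stimulatory molecules, lowers its uptake receptors and shifts its metabolism toward glycolysis.

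Promoters of 4 of the genes described first are shown, chosen because they carry the letters that these factors are known to bind. Each is 250 bases before to 50 bases after the gene's start in RefSeq (GRCm38.p6), written 5′ to 3′ on the gene's strand. Capitals mark an interferon response core (GAAANNGAA) or a kappa B motif (GGANTTTCC), each searched on both strands, and overlapping cores run together.
Ifit1, chr19:34640639-34640938, + strand: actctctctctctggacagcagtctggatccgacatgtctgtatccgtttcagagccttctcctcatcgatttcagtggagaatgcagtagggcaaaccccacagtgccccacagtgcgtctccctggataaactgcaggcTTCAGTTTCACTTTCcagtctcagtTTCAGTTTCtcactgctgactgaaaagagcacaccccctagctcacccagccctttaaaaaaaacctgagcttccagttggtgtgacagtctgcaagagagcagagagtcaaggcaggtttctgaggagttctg
Ifit3, chr19:34583279-34583578, + strand: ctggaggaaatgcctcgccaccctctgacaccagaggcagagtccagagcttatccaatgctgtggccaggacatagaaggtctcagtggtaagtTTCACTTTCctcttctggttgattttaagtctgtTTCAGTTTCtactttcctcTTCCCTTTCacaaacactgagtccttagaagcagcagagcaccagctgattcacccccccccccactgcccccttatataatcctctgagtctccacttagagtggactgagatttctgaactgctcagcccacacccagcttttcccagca
Cxcl10, chr5:92348840-92349139, - strand: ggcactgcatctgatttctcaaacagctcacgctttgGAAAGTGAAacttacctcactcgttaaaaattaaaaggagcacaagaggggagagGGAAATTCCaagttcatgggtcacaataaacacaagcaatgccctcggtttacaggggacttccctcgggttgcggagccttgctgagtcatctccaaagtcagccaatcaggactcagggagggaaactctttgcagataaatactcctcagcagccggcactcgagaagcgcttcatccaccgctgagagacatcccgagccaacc
Il6, chr5:30012864-30013163, + strand: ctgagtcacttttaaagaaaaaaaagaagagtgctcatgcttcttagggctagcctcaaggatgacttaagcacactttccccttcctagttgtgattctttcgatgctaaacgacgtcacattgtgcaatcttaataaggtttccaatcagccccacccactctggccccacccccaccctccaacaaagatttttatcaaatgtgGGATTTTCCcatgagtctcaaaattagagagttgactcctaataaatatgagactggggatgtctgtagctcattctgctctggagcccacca
Ifit1 held 3 response cores, at -109, -103 and -84 from its start, and Ifit3 held 3, at -155, -121 and -102. Cxcl10 held 1 response core at -213 and 1 kappa B motif at -158, and Il6 held 1 kappa B motif at -43. Promoter entries were matched for 14368 of the 18193 genes. The response core lay in 8.71% of these genes, in 18.6% of those called at least 2-fold higher and in 7.84% of those called at least 2-fold lower. Of the 20 largest rises it lay in 6 of the 17 with an entry, and of the 15 largest falls in 2 of 12. The promoters of Ptgs2, Ifit2 and Irf7, which are not printed, held neither motif. Among antiviral effectors with an entry the response core lay in 14 of 25, and among interferon-inducible GTPases in 6 of 7. The kappa B motif lay in 1.62% of all genes and in 4 of 8 CXC chemokines. In 3 promoters a match of one motif overlapped the other. A match is a description of letters, not evidence of binding.

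At 18 h NCFM cells differed from control cells at 4320 genes, 23.7% of those tested (limma, adjusted p under 0.05). Higher in NCFM were 1347 genes, 7.4% of all, and lower were 2973, 16.3% of all. These shares are the background for every count of a gene list given below. The rises were fewer but larger, with 125 genes rising and 42 falling at least 4-fold, and 17 rising and 0 falling at least 16-fold. The 5 arrays were separated by treatment, all NCFM arrays lying beyond both controls, on 8580 genes, which is 47.2% of all, and on 4304 of the called genes. The share of falls depends on scaling: 68.8% of calls were falls on the deposited scale, 51.4% after quantile normalization (2069 rises and 2186 falls) and 72.9% after centring on spike-in probe sets. Without control array 2 the count fell to 2868. With genes below the median brightness left out, the median change of the remaining genes was -0.17 and 74.5% of calls were falls. Each gene is given by its brightest probe set. Of 167 called list members with several probe sets, 82 had another whose change was under 0.5 times as large or of opposite sign, and it was of opposite sign for 20.

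**Figure D1:**
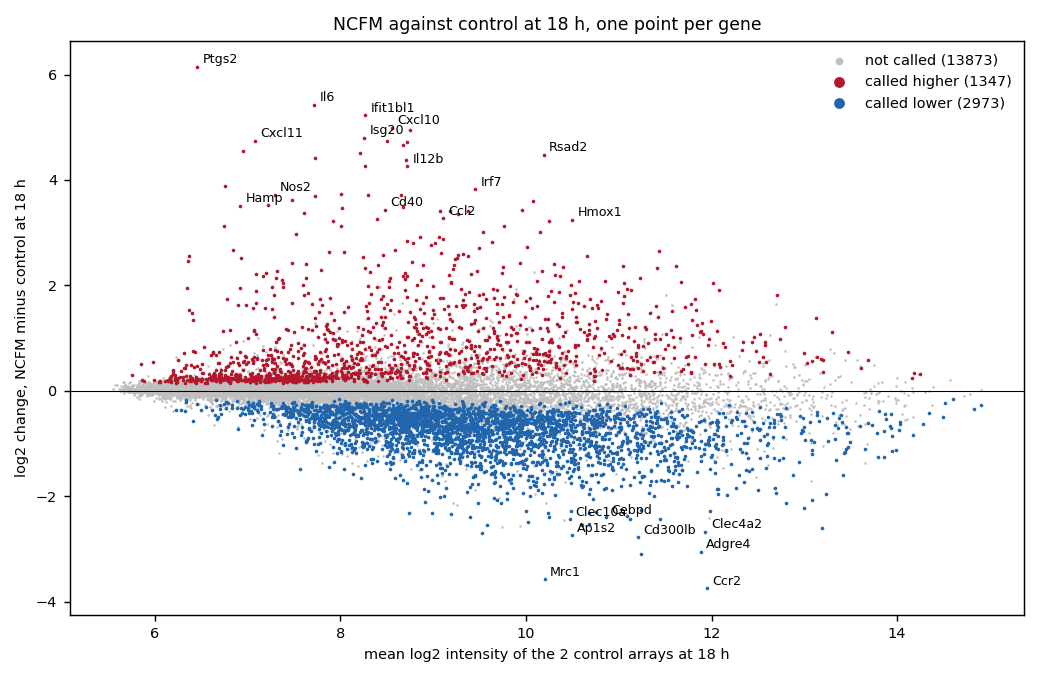
Each point is 1 of 18193 genes. The horizontal axis is the mean log2 intensity of the 2 control arrays and the vertical axis the log2 change at 18 h; red and blue mark the 1347 called rises and 2973 called falls, grey the rest. Ptgs2 lies highest at 6.15 and Ccr2 lowest at -3.75.

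The largest rise was that of Ptgs2, the inducible cyclooxygenase that makes the precursor of prostaglandins. Its intensity was 8648, 6832 and 4108 on NCFM arrays 1, 2 and 3, and 86 and 90 on control arrays 1 and 2. The control values lie below the lower quartile of an array, which was 104 to 108 in intensity, so the measured ratio is set partly by background signal. The log2 change was 6.15 (SE 0.31, adjusted p = 7.1e-07), and 8.11 once the 5th percentile of each array's intensity was subtracted. Il6, which encodes the inflammatory cytokine interleukin 6, was at 13751, 9010 and 5968 in NCFM cells and at 188 and 236 in control cells, a log2 change of 5.42 (SE 0.36, adjusted p = 2.6e-06). For both genes NCFM array 1 was the highest and array 3 the lowest, and no NCFM array came near a control.

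Of the 20 largest rises, 9 were genes of the antiviral effector list and 4 were CXC chemokines. Cxcl10, whose product draws activated T cells, was at 11302, 11802 and 13092 in NCFM cells and at 221 and 645 in control cells (log2 change 5.00, SE 0.49, adjusted p = 3.4e-05). The NCFM arrays agree closely and control array 2 lies above control array 1. Ms4a4c, a membrane protein of the 4-span family, changed by 4.67 and Ptges, the enzyme that completes prostaglandin E2, by 3.74. Ptges was at 1616, 4462 and 5753 against 261 and 256, so array 1 was the lowest of the NCFM arrays there. All 20 genes kept their call in every alternative fit. For Cxcl11 and Cxcl9 other probe sets of the gene gave changes down to 0.42 and 0.79.

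**Figure D2:**
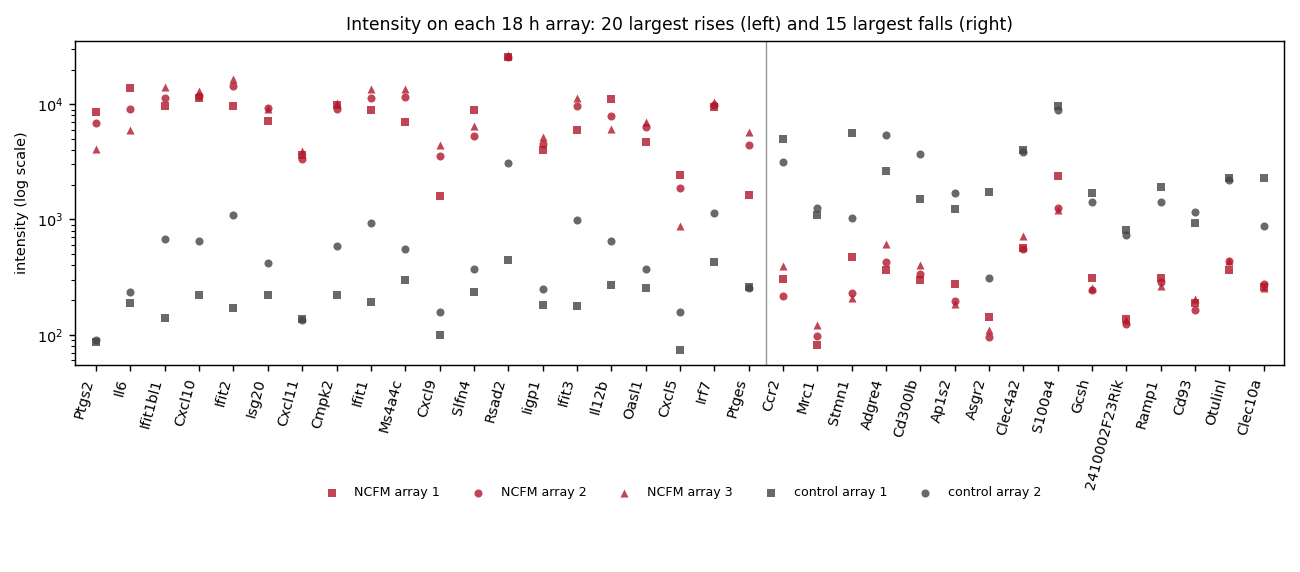
Intensity (log axis) on each 18 h array for the 20 largest rises, left of the line, and the 15 largest falls, right of it. Red symbols are NCFM arrays, grey are control arrays, and shape gives the array number; the groups do not overlap for any of the 35 genes, since separation was part of how they were chosen.

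Genes that answer interferon rose almost without exception. Of 33 measured antiviral effectors, 31 rose and 0 fell, with a median log2 change of 2.32 beside 0.0022 for all genes. Ifit1bl1, Ifit2, Ifit1 and Ifit3, which encode proteins that bind foreign RNA, changed by 5.23, 4.94, 4.71 and 4.38. Ifit1 was at 8860, 11343 and 13467 on the NCFM arrays and at 191 and 931 on the controls. Rsad2, the radical SAM enzyme viperin, was at 25674, 25764 and 26502 against 445 and 3073 (log2 change 4.47, SE 0.74, adjusted p = 0.0010). Control array 2 was thus well above control array 1 for both genes, while all NCFM arrays lay above both. Isg20, an exonuclease that degrades viral RNA, changed by 4.80, the mitochondrial nucleotide kinase Cmpk2 by 4.73, and Oasl1, a relative of the oligoadenylate synthetases, by 4.26. Mx2, a dynamin-like antiviral GTPase, was steady within groups at 1735, 1821 and 1870 against 404 and 427 (2.12, SE 0.15, adjusted p = 4.0e-06). Usp18, which removes ISG15 from proteins and dampens the interferon receptor, changed by 3.22 and Bst2, which tethers virus particles, by 2.38. Adar, the RNA-editing enzyme, and Ifitm3, which blocks virus entry, were the members without a call, at -0.05 and 0.59. The list's median in control array 2 lay 0.99 above control array 1 on the log2 scale, with 31 of 33 members higher there. The median change was 2.77 between the arrays numbered 1 and 2.05 between NCFM arrays 2 and 3 and control array 2.

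All 9 interferon-inducible GTPases, which attack the membranes around intracellular microbes, rose, with a median of 2.23. Iigp1 was at 3984, 4489 and 5155 in NCFM cells against 182 and 247 in control cells (4.41, SE 0.34, adjusted p = 5.5e-06). Gbp2, a guanylate-binding protein, was already at 4233 and 3108 in control cells and reached 12000, 12110 and 12508 with NCFM, a change of 1.75. Irgm2 (1.60) lost its call without control array 1, where its adjusted p was 0.070.

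Among 13 cytosolic sensors 9 rose and 1 fell. Ifih1 (the RNA sensor MDA5) changed by 2.43, Dhx58 (LGP2) by 1.97, Ddx58 (RIG-I) by 1.87 and Nod1, which senses peptidoglycan fragments, by 1.12. Sting1, the adaptor for cytosolic DNA sensing, went the other way, at 1024, 1007 and 930 in NCFM cells against 2097 and 1632 in control cells (-0.91, SE 0.16, adjusted p = 0.0017). Fitted on the 5 arrays of 18 h alone, 5 sensors rose.

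Of 14 IRF and STAT factors 4 rose and 1 fell, where 7.4% of all genes rose and 16.3% fell. Irf7, which amplifies type I interferon, was at 9523, 9865 and 10397 against 431 and 1142 (3.82, SE 0.34, adjusted p = 1.7e-05). Stat2, a subunit of the interferon-activated complex, changed by 1.92. Irf1 (1.01) and Stat3 (0.82) lost their calls without control array 1 (adjusted p = 0.16 and 0.23), and also without NCFM array 2 and 3 respectively, so that 2 members rose without that control. Irf3, the factor that starts interferon-beta, fell by 0.63 on the log2 scale, at 1046, 1033 and 990 against 1705 and 1460. The list's median change was 0.36, and it was 0.88 between the arrays numbered 1 and -0.06 between NCFM arrays 2 and 3 and control array 2.

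The interferons themselves were low at this time. Ifnb1 was at 314, 251 and 241 in NCFM cells and at 154 and 160 in control cells, a change of 0.77 (SE 0.25, adjusted p = 0.045). The 3 rises of this list are Ifnb1, Ifnar2 and Ifngr2, and 0 or 1 of them stayed called when any of the 5 arrays was left out. The call of Ifnb1 was lost in each such fit, with adjusted p up to 0.14. The measured Ifna genes and Ifng changed by -0.16 to 0.20 and none was called. Ifngr1, the ligand-binding chain of the interferon-gamma receptor, fell to 672, 806 and 915 from 1838 and 3681 (-1.72, SE 0.34, adjusted p = 0.0031). Ifnar2 (1.16) and Ifngr2 (0.56), chains of the receptors for type I interferon and interferon-gamma, lost the call without control array 1 or 2.

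Toll-like receptors and adaptors at the cell surface showed 3 rises and 2 falls among 15. Of all genes 7.4% rose and 16.3% fell. Tlr1, a partner of Toll-like receptor 2, was at 884, 1760 and 1943 in NCFM cells and at 192 and 709 in control cells (1.97), and lost its call without control array 1 (adjusted p = 0.31) or NCFM array 2 or 3. Traf6, the ubiquitin ligase that relays the signal, changed by 0.37 and kept its call in every alternative. Tlr4, the lipopolysaccharide receptor, changed by -0.72, and its call was lost without the same arrays. The list held 1 rise without control array 1 or NCFM array 3, and 6 rises and 4 falls with the array number as a block.

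NF-kB genes and their brakes rose in 10 of 17 cases and fell in 0. Tnfaip3 (A20), which removes the ubiquitin chains of the pathway, was at 4731, 4506 and 4935 against 1148 and 1861 (1.69, SE 0.27, adjusted p = 0.00089). The inhibitors Nfkbib, Nfkbie and Nfkbia changed by 1.23, 0.93 and 0.59. Without control array 1 only 5 members rose. Feedback genes that end cytokine and kinase signals rose in 9 of 18 cases and fell in 2. Socs3, which blocks the receptor of interleukin 6, was at 8833, 6254 and 6316 against 1002 and 442 (3.40, SE 0.38), Socs1 changed by 2.18 and the MAP kinase phosphatase Dusp1 by 1.98. Zfp36l2, a protein that destabilizes messenger RNA, fell by 1.18 on the log2 scale.

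**Figure D3:**
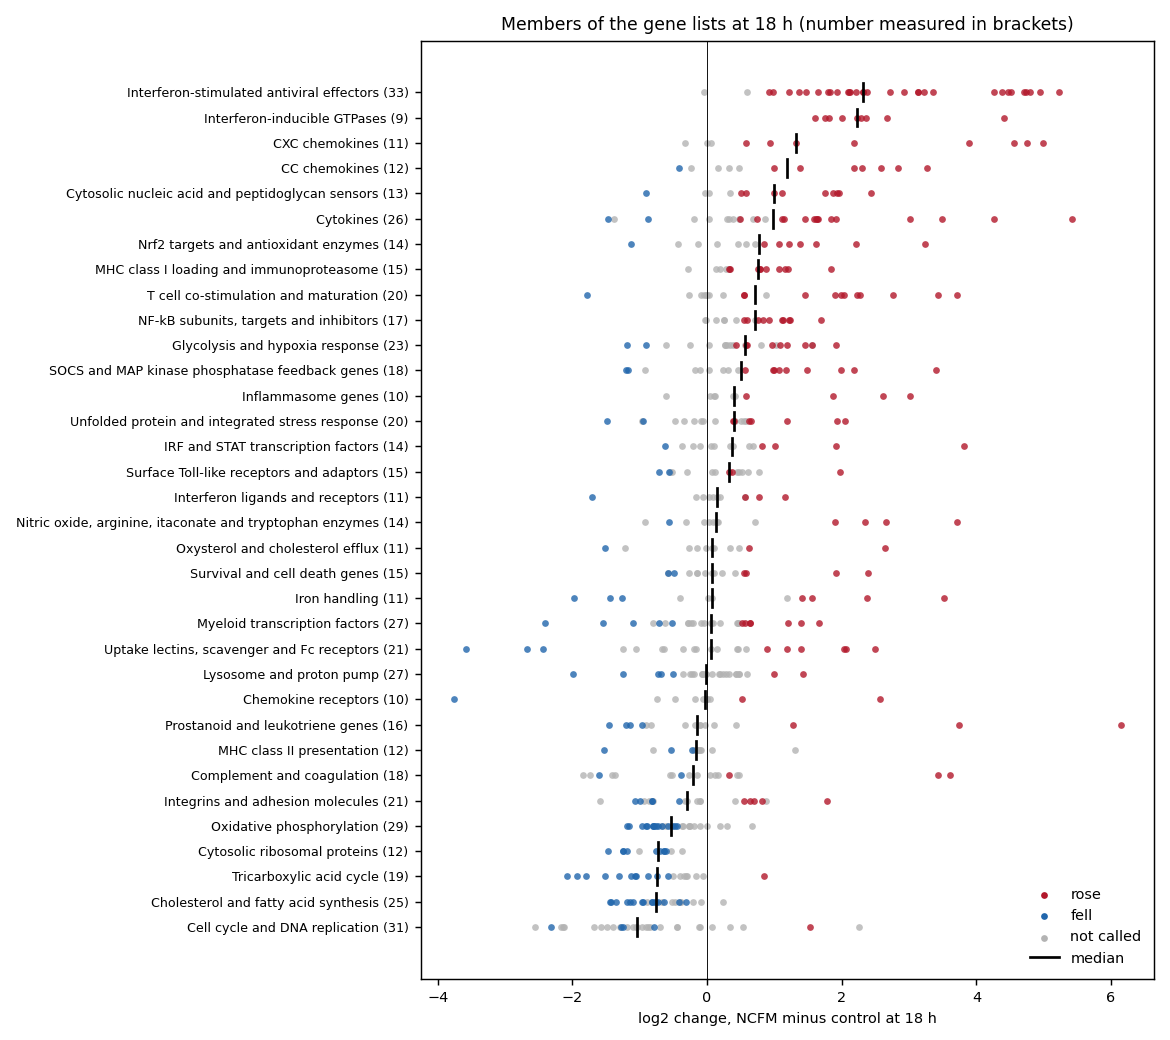
Each point is 1 measured member of a gene list, placed at its log2 change at 18 h, red for called rises, blue for called falls and grey for no call; black bars are medians. Antiviral effectors (median 2.32) and interferon-inducible GTPases (2.23) lie highest, and cell cycle (-1.04) and cholesterol and fatty acid synthesis (-0.76) lie lowest.

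Cytokine genes rose in 15 of 26 cases and fell in 2. Il12b, the p40 chain that interleukins 12 and 23 share, was at 11110, 7858 and 6055 in NCFM cells against 271 and 656 in control cells (4.26, SE 0.39, adjusted p = 2.0e-05). Its partner for interleukin 12, Il12a, was far dimmer, at 274, 302 and 186 against 113 and 112 (1.14), and Il23a, its partner for interleukin 23, was not called (0.48, adjusted p = 0.18). Il1a was at 8961, 3791 and 2851 against 410 and 409 (3.49, SE 0.39). NCFM array 1 was the highest for Il12b and Il1a, but every NCFM array exceeded both controls. Il1b was at 18261, 8435 and 5055 against 541 and 2403 (3.01), and lost its call without control array 1 (adjusted p = 0.11). Il10, the main anti-inflammatory cytokine, changed by 1.63, Il1rn, the natural blocker of interleukin 1, by 1.92, and Il15, which sustains natural killer and memory T cells, by 1.84. Tnf was at 1510, 1611 and 2184 against 567 and 576 (1.61, SE 0.20, adjusted p = 0.00017). Il16, a T cell attractant, fell by 1.47, and Tgfb1 (-0.87) lost its call in 3 alternatives, one of them leaving out control array 2 (adjusted p = 0.052).

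Of 12 CC chemokines 7 rose and 1 fell, and of 11 CXC chemokines 8 rose and 0 fell. Ccl3 and Ccl4, which draw monocytes and T cells, changed by 2.83 and 2.58. Ccl2, which draws monocytes through CCR2, was at 12962 on NCFM array 1 but at 3835 and 3022 on arrays 2 and 3, against 722 and 419 (3.27, SE 0.61, adjusted p = 0.0023). Cxcl11 was the steadiest, at 3663, 3324 and 3928 against 136 and 135 (4.74, SE 0.19, adjusted p = 1.6e-07). Cxcl5, a neutrophil attractant, was at 2448, 1885 and 879 against 74 and 158, so the controls lie near the background. Ccl5 was abundant in both groups, at 22882, 23301 and 23732 against 5862 and 13612 (1.38), and lost its call on the 18 h arrays alone (adjusted p = 0.074). Without control array 1, 5 CXC chemokines rose.

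Among 10 chemokine receptors the lymph node homing receptor Ccr7 did not separate, at 9525, 3615 and 2721 in NCFM cells and 4458 and 4597 in control cells (0.00, SE 0.41). Ccrl2, which presents the attractant chemerin, rose by 2.56. Ccr2, the receptor that brings monocytes to inflamed tissue, was the largest fall of all genes on the deposited scale, at 303, 215 and 391 against 4996 and 3143 (-3.75, SE 0.36, adjusted p = 2.6e-05). After background subtraction its change was -4.12, less than that of Mrc1 (-5.22). Other probe sets of Ccr2 gave changes up to -1.69.

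T cell co-stimulation and maturation genes rose in 11 of 20 cases and fell in 1. Cd40, through which T helper cells license the dendritic cell, was at 4357, 3677 and 3564 against 375 and 341 (3.43, SE 0.20, adjusted p = 1.7e-06). Cd86, a ligand of CD28, was at 4733, 3054 and 2784 against 736 and 690 (2.27). The other CD28 ligand, Cd80, was at 936 on NCFM array 1 and at 199 and 192 on arrays 2 and 3, against 362 and 289, so the groups overlap and the change was 0.03 (SE 0.71). Cd83 overlapped in the same way, at 5840, 2156 and 1792 against 2827 and 4130. Genes that restrain T cells or myeloid cells were also higher: Cd274 (PD-L1) by 2.04 and Cd200 by 2.76. Cd200r1, the receptor of CD200, fell by 1.78 on the log2 scale. Il15ra, which presents interleukin 15, changed by 2.23 and the activation marker Cd69 by 3.71.

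Genes that load MHC class I rose in 10 of 15 cases and fell in 0. Those of MHC class II rose in 0 of 12 and fell in 3, where 7.4% of all genes rose and 16.3% fell. Tap1, a chain of the peptide transporter, was at 3511, 3163 and 3477 against 928 and 969 (1.83, SE 0.14). Psmb9, a catalytic subunit of the immunoproteasome, changed by 1.16 and Tapbp (tapasin) by 0.87. H2-DMa, which exchanges peptides on class II, was at 1771, 2120 and 1748 against 6539 and 4479 (-1.53, SE 0.18, adjusted p = 0.00011). The class II chains were at the top of the range in both groups: H2-Aa was at 17360, 16969 and 15928 against 17649 and 17833, with no call. Ciita (-0.54) and Cd74 (-0.23) were the other class II falls, and neither kept its call without control array 1, NCFM array 2 or NCFM array 3, fits in which 1 gene of the list fell.

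Uptake receptors moved both ways, with 6 rises and 3 falls among 21, where 7.4% of all genes rose and 16.3% fell. The mannose receptor Mrc1 was at 81, 97 and 122 in NCFM cells against 1101 and 1264 in control cells (-3.58, SE 0.18, adjusted p = 7.1e-07). Its NCFM values lie near the background, and the change was -5.22 after background subtraction. Clec4a2, an inhibitory lectin, was at 567, 558 and 723 against 3974 and 3854 (-2.68). Clec10a, a lectin for galactose and N-acetylgalactosamine, changed by -2.44. Fcgr1, the high-affinity receptor for IgG, rose by 1.40 and the endocytic lectin Ly75 (DEC-205) by 0.88. Clec4e, a lectin for mycobacterial glycolipid (2.04), lost its call without control array 1, where 2 members of the list rose. The scavenger receptor Marco (2.06) and the IgG receptor Fcgr4 (2.49) lost theirs there and without NCFM array 2 or 3. Without NCFM array 2, 3 members rose, and with the array number as a block 5 fell.

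The other large falls include genes of myeloid surface proteins. Adgre4, an adhesion receptor of macrophages and some dendritic cells, was at 367, 427 and 608 against 2660 and 5387 (-3.05, SE 0.53, adjusted p = 0.0015). Cd300lb, an activating receptor of myeloid cells, changed by -2.78, Ap1s2, a clathrin adaptor subunit, by -2.74, Gcsh of the glycine cleavage system by -2.54, and Ramp1, a subunit of the receptor for calcitonin gene-related peptide, by -2.52. Cd93, a receptor of phagocytes, changed by -2.48, and 2410002F23Rik and Otulinl by -2.54 and -2.44. For Ap1s2, Ramp1, Cd93 and Otulinl another probe set of the gene gave a change of 0.00, 0.01, 0.06 and -0.34. Stmn1, which breaks down microtubules in dividing cells, was at 474, 228 and 207 against 5666 and 1034 (-3.10), and Asgr2, an asialoglycoprotein receptor subunit, at 142, 95 and 109 against 1744 and 313 (-2.70). Both lost the call without control array 1 (adjusted p = 0.21 and 0.35) and without NCFM array 2 or 3, and Asgr2 without NCFM array 1. S100a4, a calcium-binding protein, lost it without either control (adjusted p = 0.052 and 0.053).

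Prostanoid and leukotriene genes held 3 rises and 4 falls among 16, where 7.4% of all genes rose and 16.3% fell. Pla2g4a, which frees arachidonic acid, Ptgs2 and Ptges, the steps to prostaglandin E2, changed by 1.28, 6.15 and 3.74. Tbxas1, thromboxane synthase, was at 568, 840 and 921 against 2072 and 2094 (-1.45), and Alox5ap, which hands arachidonic acid to 5-lipoxygenase, was at 5556, 6191 and 6025 against 11655 and 11449 (-0.96). Alox5 (-1.15) and Lta4h (-1.20) lost their calls without control array 1, which left 2 falls, as did Pla2g4a without control array 2 (adjusted p = 0.089).

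Of 14 enzymes of nitric oxide, arginine, itaconate and tryptophan 4 rose and 1 fell. Nos2, the inducible nitric oxide synthase, was at 1580, 2051 and 2703 against 169 and 146 (3.71, SE 0.51, adjusted p = 0.00030). Gch1, which makes its cofactor, changed by 1.89 and Slc7a2, which imports its substrate arginine, by 2.35. Acod1, which makes itaconate, was at 16511, 17224 and 18580 against 1836 and 4153 (2.66). The tryptophan enzyme Ido1 stayed near the background in both groups (0.03, no call), and Kynu of the same pathway fell by 0.56 on the log2 scale. Arg1 was at 16869, 16356 and 16967 against 8688 and 12032, without a call (0.71, adjusted p = 0.21).

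Nrf2 targets and antioxidant enzymes rose in 7 of 14 cases and fell in 1. Hmox1, heme oxygenase, was at 11008, 15853 and 14633 against 1559 and 1338 (3.24, SE 0.51, adjusted p = 0.00075), and the cystine importer Slc7a11 changed by 2.21. Without control array 1, 3 members rose, and without NCFM array 2, 4 did. Iron genes went both ways, with 4 rises and 3 falls among 11. Hamp, the hormone hepcidin that blocks iron export, was at 1410, 1544 and 1228 against 122 and 121 (3.51, SE 0.27, adjusted p = 6.3e-06), and Lcn2, which binds bacterial siderophores, at 13806, 16320 and 19312 against 3144 and 3151 (2.37). Tfrc, the transferrin receptor, was at 414, 296 and 279 against 1305 and 1242 (-1.97, SE 0.20), and Hfe, which regulates hepcidin, changed by -1.44.

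Lipid synthesis and mitochondrial genes were mostly lower. Of 25 genes of cholesterol and fatty acid synthesis 16 fell and 0 rose, with a median of -0.76. Fasn, fatty acid synthase, was at 292, 254 and 271 against 760 and 704 (-1.43, SE 0.14, adjusted p = 4.1e-05), Cyp51 of the sterol pathway changed by -1.35 and the citrate lyase Acly by -0.76. Without control array 1, 10 members fell. Ch25h, which makes 25-hydroxycholesterol, an oxysterol that restrains sterol synthesis and virus entry, was at 1518, 1153 and 1801 against 246 and 224 (2.64, SE 0.33).

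Of 19 tricarboxylic acid cycle genes 11 fell and 1 rose (median -0.74). The rise, Pcx (0.85), and the fall of Fh1 (-1.80) lost their calls on the 18 h arrays alone. The isocitrate dehydrogenases of the list were prominent. Idh1, the cytosolic form and not an enzyme of the mitochondrial cycle, was at 1598, 2221 and 2414 against 6682 and 11205 (-2.08, SE 0.36). Idh3a was at 344, 285 and 281 against 1731 and 774 (-1.94, SE 0.36). Idh3g, Idh2 and Idh3b changed by -1.51, -1.31 and -1.13, and Pdha1, which feeds pyruvate into the cycle, by -1.07. Of 29 oxidative phosphorylation genes 15 fell and 0 rose (median -0.53). Ndufv1 and Ndufs1 of complex I changed by -0.91 and -0.79 and Sdha of complex II by -0.67. Only 5 of these genes fell without control array 1, and 9 and 8 fell without NCFM array 2 or 3.

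Glycolysis and hypoxia genes rose in 9 of 23 cases and fell in 2 (median 0.56). Ero1a, a hypoxia-induced oxidase of the endoplasmic reticulum, was at 9446, 8861 and 7185 against 2302 and 2183 (1.91, SE 0.40, adjusted p = 0.0044), and the hexokinases Hk3 and Hk1 changed by 1.56 and 0.96. Aldoc, an aldolase, fell by 1.18. Without control array 2, 5 members rose, and Ldha (0.60) and Pgk1 (0.42), enzymes of the pathway, lost their calls (adjusted p = 0.17 and 0.13). Cytosolic ribosomal protein genes fell in 9 of 12 cases and rose in 0 (median -0.73). Rps6 changed by -1.48 and Rpl4, at 8604, 5483 and 5080 against 15320 and 14343, by -1.25. Processed pseudogenes resemble these genes, so their probe sets may share signal.

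Cell cycle genes depended on the array numbers. Of 31 measured, 4 fell and 1 rose, shares not above those of all genes (16.3% falling and 7.4% rising). The list's median change was -1.04. Cdk4, a kinase of G1 phase, was at 535, 650 and 622 against 1637 and 1301 (-1.28, SE 0.15). The other called falls were the helicase subunits Mcm7 (-2.32) and Mcm3 (-1.25) and the kinase Cdk2 (-0.79), and all 3 lost their calls without control array 1 (adjusted p = 0.19, 0.26 and 0.11). Ccna2, a cyclin of S phase, was at 449, 398 and 399 against 3336 and 460 (-1.58, SE 0.84, adjusted p = 0.20), and Mcm5 of the replication helicase at 391, 225 and 228 against 2801 and 508 (-2.13, adjusted p = 0.10), neither of them called. In both, control array 1 stands far above every other array. Control array 2 lay above control array 1 in 1 of the 31 genes, with a median difference of -1.48 (array 2 minus array 1, log2). The list's median change was -1.69 between the arrays numbered 1 and -0.39 between NCFM arrays 2 and 3 and control array 2. Without control array 1, 1 gene fell, without control array 2, 14 fell, and with the array number as a block 19 fell and 2 rose. Cdkn1a, the p21 inhibitor of the cycle, was called higher (1.53) and lost its call without control array 2 (adjusted p = 0.088).

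**Figure D4:**
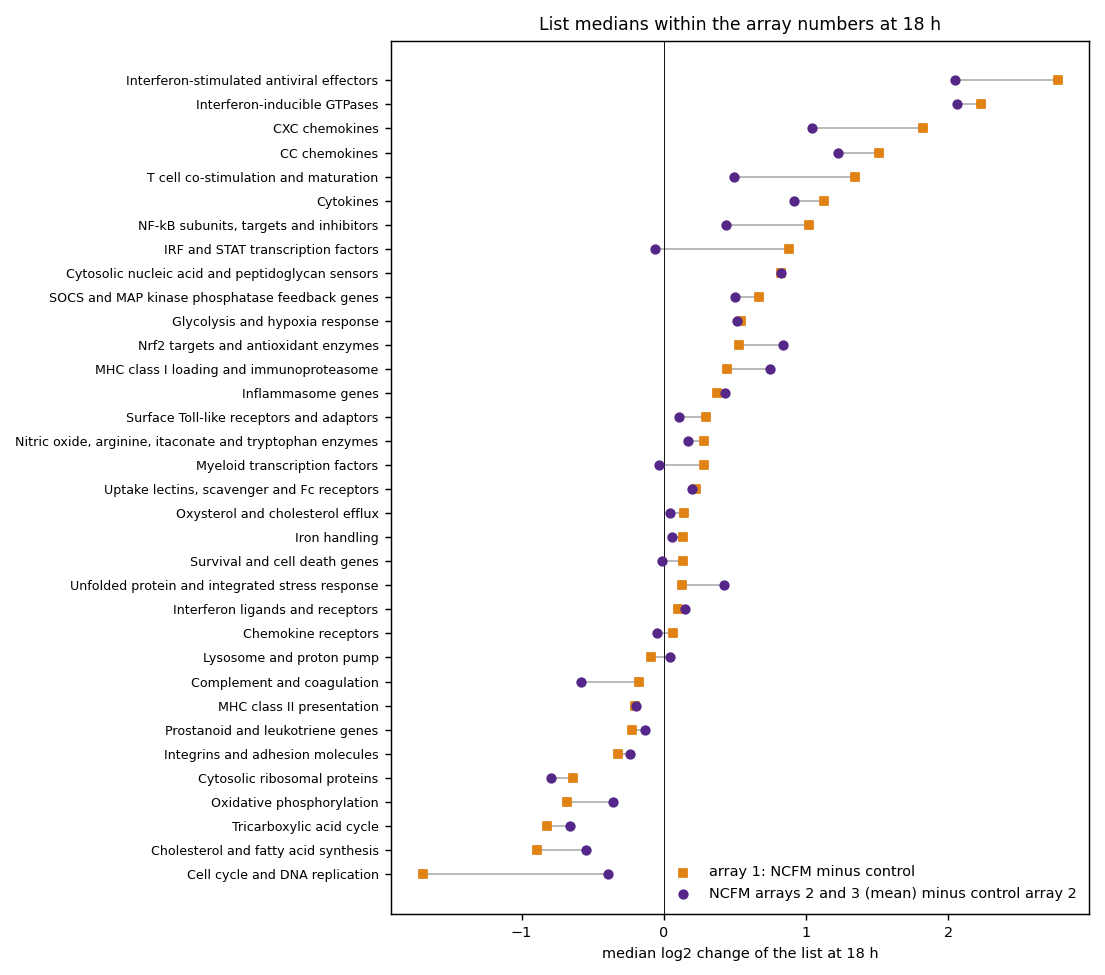
Median log2 change of each list at 18 h, between the arrays numbered 1 (squares) and between NCFM arrays 2 and 3 and control array 2 (circles). The 2 values lie farthest apart for cell cycle genes, at -1.69 and -0.39, while antiviral effectors lie above 2 in both.

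Of 20 genes of the unfolded protein and integrated stress response 7 rose and 2 fell. Ddit3 (CHOP), a factor of the response, was at 2391, 2540 and 2366 against 514 and 671 (2.05, SE 0.13, adjusted p = 2.3e-06), while its other probe set gave 0.29. Atf3 changed by 1.92 and Ppp1r15a, which ends the translation block, by 1.19. Herpud1, which acts in degradation of misfolded proteins, was at 535, 527 and 506 against 1691 and 1280 (-1.49, SE 0.11), and Dnajc3, a chaperone partner of the endoplasmic reticulum, changed by -0.95. Other helpers of that compartment rose, Dnajb11 by 0.38 and Edem1 by 0.40, and lost their calls in 7 and 9 alternatives. Without control array 2, 3 members of the list rose. Among 15 survival and death genes 4 rose and 2 fell, where 7.4% of all genes rose and 16.3% fell. Mlkl, the executor of necroptosis, was at 2.39 and Cflar, which restrains caspase 8, at 1.92. Inflammasome genes rose in 4 of 10 cases, with Casp4, a sensor of cytosolic lipopolysaccharide, at 2.62 and Casp1, which processes interleukin 1, at 1.87.

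Complement and coagulation genes held 3 rises and 2 falls among 18, where 7.4% of all genes rose and 16.3% fell. Procr, the protein C receptor, was at 13880, 13862 and 11649 against 794 and 1460 (3.60, SE 0.26) and Cfb, factor B of the alternative pathway, at 6944, 13464 and 13269 against 729 and 1360 (3.43). Properdin, Cfp, which stabilizes that pathway's convertase, fell by 1.60. With the array number as a block 7 members of the list fell. Lysosome genes held 2 rises and 5 falls among 27, shares near those of all genes, Gusb, the beta-glucuronidase, being the largest at 1095, 1074 and 1338 against 4169 and 5082 (-1.98, SE 0.12). With the block 6 lysosome genes rose, and without NCFM array 1, NCFM array 2 or control array 2, 3 fell. Integrins and adhesion molecules held 5 rises and 5 falls among 21. Itga5, the fibronectin receptor chain, changed by 1.78 and Vcam1 by 0.81. Itgb7, the integrin chain of gut homing, changed by -0.82. In this list 9 fell with the block, 3 fell without NCFM array 2 or control array 2, and 3 rose without control array 1.

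Myeloid transcription factors held 7 rises and 5 falls among 27, where 7.4% of all genes rose and 16.3% fell. Cebpd, which amplifies Toll-like receptor signals, was at 466, 271 and 349 against 1750 and 1989 (-2.40, SE 0.22, adjusted p = 2.0e-05), while its other probe set gave -0.21. Klf2, a restraint on inflammatory genes, changed by -1.10 and the lipid-sensing receptor Pparg by -0.71. Batf, a transcription factor of the AP-1 family, was at 2214, 2133 and 2199 against 807 and 595 (1.65, SE 0.16), Batf2 changed by 1.40 and Id2 by 0.64. Cebpa (-1.55) lost its call without control array 2 (adjusted p = 0.14).

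The dendritic cell label was checked on 13 markers. Class II chains and Cd74 were at the top of the range, Itgax (CD11c) was at 2079, 1699 and 1654 in NCFM cells and 3534 and 2830 in control cells, Flt3 at 350 to 427, and Xcr1 at 130 to 148, near the background. Of these markers 0 rose and 3 fell, or 1 without either control. Macrophage markers were present too, with Adgre1 (F4/80) at 3529, 4225 and 5060 against 1761 and 4033 and C1qb at 2528, 7541 and 6545 against 10622 and 15626. All 11 macrophage markers were higher in control array 2 than in control array 1, and the summed list was 28599 to 54839 in NCFM cells and 47631 to 83587 in control cells. By the test 2 macrophage markers rose, Fcgr1 (1.40) and Siglec1 (0.52), and 0 fell, but with the array number as a block 2 rose and 6 fell. Siglec1 lost its call on the 18 h arrays alone (adjusted p = 0.086). The summed neutrophil list (9 genes) was lower, at 6793 to 17687 in NCFM cells against 23574 to 27211 in control cells. The eosinophil list (6 genes) was 1400 to 3417 against 1477 to 8041. In each of these lists 1 gene was called lower and 0 higher, where 16.3% of all genes fell. These genes were Ltf (-1.61) and Siglecf (-1.75), and both lost the call without NCFM array 2 or 3 and on the 18 h arrays alone. The summed plasmacytoid list (6 genes) was 10329 to 13621 against 2737 to 3883. Of its genes 1 rose, Bst2 (2.38), which is also named among the antiviral effectors, 1 fell and 4 were not called. The list's median change was 0.15. The summed T cell list (6 genes) was 1216 to 1275 against 1155 to 1170 and the erythroid list (5 genes) 982 to 1031 against 932 to 1015. Single T cell genes lay between 86 (Cd3g) and 375 (Cd4) and erythroid genes between 110 (Alas2) and 402 (Epor), around the array medians of 162 to 167. No marker can be at 0, since the lowest intensity in the table is 42. In bulk samples fewer cells of a type and less RNA per cell cannot be told apart, and the part of cell mixture in the results was not tested. Sex-linked genes split by array number: Xist was at 263 on NCFM array 1 and 286 on control array 1, and at 4253, 4303 and 6956 on the others, while the Y-linked Eif2s3y was at 898 and 896 against 67 to 69.

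Whether the effect of NCFM at 18 h differed from that at 10 h was tested as a difference of differences over groups that share no array. In this test 1 gene passed, 0.0055% of all, and 1358 had an unadjusted p under 0.05. That gene was Asb13, a subunit of a ubiquitin ligase, at 323, 314 and 315 in NCFM cells at 18 h against 264 and 256, and at 607, 666 and 659 at 10 h against 258 and 254 (difference -1.04, adjusted p = 0.0020). With the array number as a block 82 genes passed, 31 more positive and 51 more negative at 18 h, and without NCFM array 1 of 18 h 30 passed. Averaging the probe sets of each gene gave 0 genes and centring on spike-in probe sets gave 2 others, Asb13 having an adjusted p of 0.10 in each. With the block, the largest positive difference was that of Selenbp1, a selenium-binding protein, at -2.09 at 10 h and 1.45 at 18 h. Ankrd37, a hypoxia-induced gene, followed at 1.93, then Scd2, a fatty acid desaturase, and Gys1, glycogen synthase, both at 1.90. The largest negative differences were those of Adgre4 (-2.34), Calhm6, a channel protein (-1.58), and Lap3, an aminopeptidase (-1.47). Of the 4320 calls at 18 h, 2905 were also calls at 10 h (67.2% of the 18 h calls, 64.7% of the 4488 calls at 10 h), and 2897 of these had the same sign.

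Against 4 h, 619 genes differed in their NCFM effect, 3.4% of all, with 216 more positive and 403 more negative at 18 h. Several cytokine and NF-kB effects were smaller at 18 h. Tnf was at 11525, 12513 and 16875 in NCFM cells at 4 h, at 3688, 4408 and 4908 at 10 h and at 1510, 1611 and 2184 at 18 h, while its controls stayed between 482 and 685. Its effect was 4.62 at 4 h and 1.61 at 18 h (difference -3.01, SE 0.27, adjusted p = 0.00051). Ifnb1 went from 3.43 to 0.77 (difference -2.66, adjusted p = 0.0022) and Nfkbiz, an NF-kB cofactor, from 3.89 to 1.13 (-2.75). For these genes the NCFM arrays of 4 h lie above all those of 18 h. Another probe set of Nfkbiz gave a change of 0.18 at 18 h, and the gene's call at 18 h was lost on the 18 h arrays alone.

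Other effects were larger at 18 h than at 4 h. Hamp was at 146, 229 and 111 in NCFM cells at 4 h, against 113 to 128 in their controls, and its effect went from 0.35 to 3.51 (difference 3.17, SE 0.37, adjusted p = 0.0015). Ddit3 went from -0.48 to 2.05 (2.53, SE 0.18, adjusted p = 0.00013), Ddit4, an inhibitor of mTOR, from -1.41 to 1.77 (3.19), Gadd45g, a stress protein, from -0.26 to 2.26 (2.52) and Ankrd37 from -1.15 to 1.43 (2.58). H2-Q5 went from 0.64 to 3.41 (2.77), though its probe set may also read related class I genes and its other probe set gave 0.16 at 18 h. Some effects were more negative at 18 h than at 4 h. Mrc1 was at 799, 885 and 1076 at 4 h, at 196, 206 and 244 at 10 h and at 81, 97 and 122 at 18 h, with controls of 1101 to 1646, and its effect went from -0.61 to -3.58 (difference -2.97, SE 0.25, adjusted p = 0.00038). Cebpd went from 0.46, without a call, to -2.40 (-2.86, SE 0.30). A630072M18Rik was called higher at 4 h (2.29) and was not called at 18 h (-0.88, adjusted p = 0.16), where its groups overlap (difference -3.17).

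**Figure D5:**
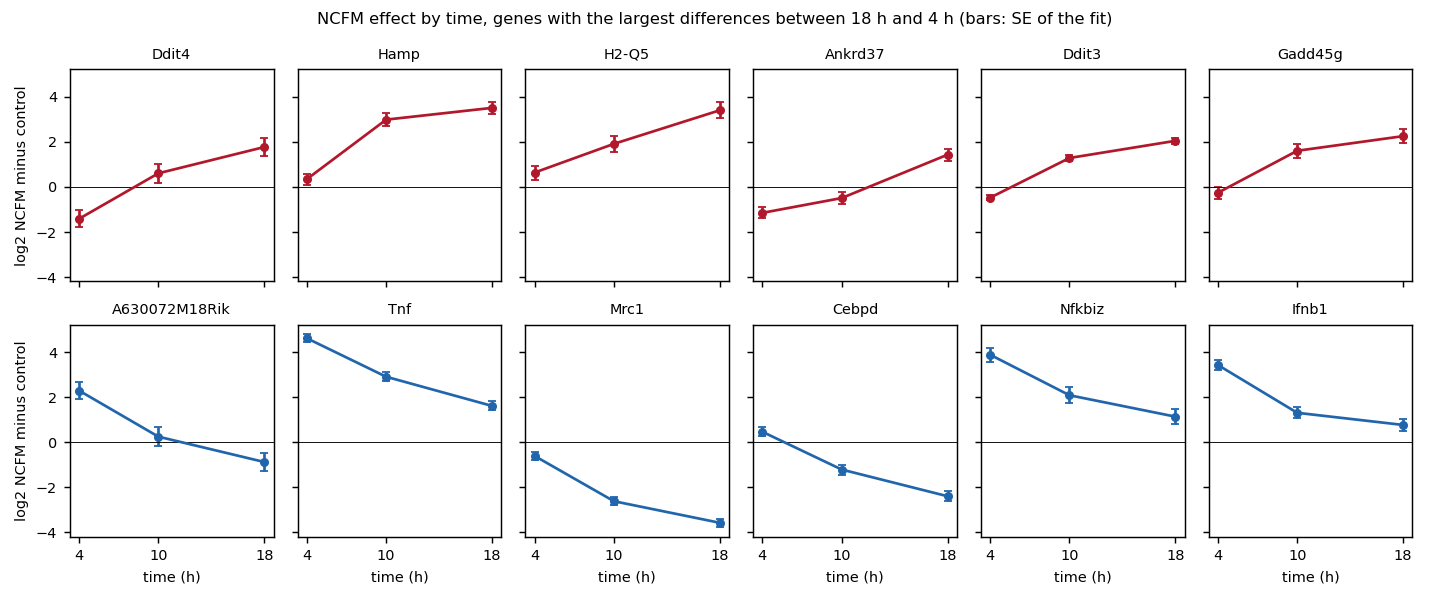
Log2 NCFM effect (mean and SE of the fit) at 4, 10 and 18 h for the 6 genes with the largest positive difference between 18 h and 4 h (top, red) and the 6 with the largest negative one (bottom, blue). Tnf, for example, goes from 4.62 to 1.61 and Hamp from 0.35 to 3.51.

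Of the 619 genes, 427 were called at 18 h with a larger effect than at 4 h, and 190 had a smaller effect at 18 h. Of 3335 calls at 4 h, 1897 were also calls at 18 h (56.9% of the 4 h calls, 43.9% of the 18 h calls), and 1849 had the same sign. Among 2423 genes called at 18 h but not at 4 h, 321 differed between the times by the test of the difference. The count was 1665 with the array number as a block and 312 without NCFM array 2 of 18 h. Centring on spike-in probe sets moved the median difference of all genes by -0.19 and gave 91.6% of 864 calls as more negative, beside 65.1% on the deposited scale and 54.2% after quantile normalization. Control cells gave 0 calls in limma between 18 h and 4 h, with 559 genes at an unadjusted p under 0.05 and 1 gene called with the block. Between 18 h and 10 h they gave 0 calls, 653 genes at an unadjusted p under 0.05 and 2 called with the block.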

How the data were processed

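The authors deposited 1 table of intensity values for 16 arrays, linear whole numbers between 42 and 31573 whose array medians lie at 162 to 167. The methods of probe set summary, background correction and normalization are not given in the sources used here. Intensities were taken to log2. Of 45101 probe sets 34945 name 1 gene (932 several, 9160 unlisted, 64 controls), and the brightest was kept for each of 18193 genes. Genes were fitted in limma 3.58.1 (R 4.3.3) as means of the 6 groups, so that all 16 arrays share the spread, with two-sided p-values, Benjamini-Hochberg adjustment across the 18193 genes and calls at adjusted p under 0.05. Tables and figures used Python 3.11.15 and matplotlib 3.10.9. On simulated data (18193 genes, 200 changed, 3 runs) the 18 h comparison recovered 82.67% of changes of 1 log2 unit and 97.67% of 2, with a false share of 4.75%. The simulated noise was independent between arrays, whereas the real arrays shared deviations by number and many more genes were called. These rates therefore need not hold for the real data.

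Named genes are the 20 largest rises and 15 largest falls at 18 h among called genes whose arrays separate, the 6 largest in each direction of each difference between times, and members of the gene lists. Genes named for the difference from 10 h under the block were chosen after their values were seen. The comparison and the 34 pathway and 12 cell type lists (653 of 730 genes measured, 4 by an older symbol) were chosen with earlier results of these data known. The labels give array numbers without saying that they pair samples. In the data, deviations from the group means correlated in all 36 same-number pairs (0.192 to 0.746). In 70 pairs of different number the correlation lay between -0.746 and 0.726. In a group of 2 arrays the deviations mirror each other, so the pairs are not separate observations. The number was therefore used as a block in an alternative fit only. Other alternatives left out each array, changed the scaling, the background, the probe set rule, the variance model, the arrays fitted or the threshold. The number of arrays limits the precision. Promoter sequences are from RefSeq.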

Additional observations from a re-analysis of the deposited data

Results flagged for a closer look

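The results here are those in which the effect of NCFM at 18 h differed from its effect at an earlier time by limma's test of the difference (adjusted p under 0.05). Each value is the log2 effect at 18 h minus that at the earlier time, over groups that share no array. Against 10 h 1 gene differed, Asb13 (-1.04). Against 4 h 619 genes differed, and the members of the gene lists and the largest differences among them are given.

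Effects less positive or more negative at 18 h than at 4 h were found in signalling and cytokine genes, namely Tnf (-3.01), Ifnb1 (-2.66), Nfkbiz (-2.75), Ccl4 (-2.001), Ccl3 (-1.63), Myd88 (-1.15), Csf1 (-1.05), Tnfsf9 (-0.92), Icam1 (-0.68), Vcam1 (-0.94) and Egr1 (-2.11). The interferon and sensor genes among them were Cgas (-1.30), Adar (-1.22) and Sting1 (-1.02). Ch25h (-1.94), the uptake receptors Mrc1 (-2.97) and Clec4a2 (-1.71), the receptor Ccr2 (-2.34), the factor Cebpd (-2.86), properdin Cfp (-1.33) and A630072M18Rik (-3.17) also lay lower. Metabolic and housekeeping genes in this direction were Cyp51 (-1.55), Fasn (-1.10), Kynu (-1.05), Slc2a6 (-1.58), Dlat (-0.53), Pdha1 (-0.72), Suclg2 (-0.85), Ndufv1 (-0.69), Rpl4 (-1.18), Rps6 (-1.19), Gusb (-1.41) and Cdk4 (-0.98).

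Effects more positive or less negative at 18 h were found in Ddit4 (3.19), Gadd45g (2.52) and Ankrd37 (2.58). The stress response and iron lists went both ways, with Ddit3 (2.53), Atf4 (0.74), Hamp (3.17) and Lcn2 (2.15) more positive and Herpud1 (-0.80) and Tfrc (-1.41) more negative. Interferon and class I genes with more positive effects were Isg20 (1.64), Bst2 (1.52), B2m (0.34) and H2-Q5 (2.77). The others were Batf (1.17), Runx3 (1.29), Ccl8 (0.78) and Zfp36l2 (1.35). The differences of Ddit3, Tnf, Mrc1, Cebpd, Hamp and Ifnb1 kept their calls in every alternative fit, while 25 of the 50 differences from 4 h lost theirs in at least 1. Ndufv1, Pdha1 and B2m lost the call in 8 alternatives, Bst2, Ccl8 and Tnfsf9 in 7, Isg20, Icam1 and Dlat in 6, and Adar, Atf4, Rpl4, Rps6, Runx3 and Zfp36l2 in 5.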

How the results depend on the processing

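Of the 4320 genes called at 18 h, 4234 were shared with the 5557 calls of the fit with the array number as a replicate block. The count was 2449 with only the groups compared, 2416 at adjusted p under 0.01 and 1097 with a change of at least 1 log2 unit, and 2868 to 4122 with an array left out. The genes whose effect differs at 18 h from 10 h numbered 1, against 82 with the block, 2 after centring on spike-in probe sets, 2 after subtraction of percentile 5 and 0 when the probe sets of each gene were averaged, and 1 to 30 with an array left out. The genes whose effect differs at 18 h from 4 h numbered 619, against 1665 with the block, 160 at adjusted p under 0.01 and 265 with at least 1 log2 unit, and 312 to 791 with an array left out. The causes were not tested. Among the named genes and list members, the only genes checked for this, no called gene reversed its direction under any alternative run. List medians did change sign: that of uptake receptors went from 0.05 to -0.16 with the block and -0.05 without NCFM array 3, and that of macrophage markers from -0.56 to 0.49 without control array 2. The medians of lysosome genes, myeloid transcription factors and the monocyte, eosinophil, B cell, mast cell and erythroid markers also changed sign in some alternatives. Both genes called against 10 h after spike-in centring were more positive at 18 h, whereas Asb13 was more negative. The values from the arrays numbered 1 alone have no replicates and give no count. Centring on spike-in probe sets moved the median difference between 18 h and 10 h by 0.25. On the 18 h arrays alone 2 of the inflammasome genes rose, and 2 lysosome genes, 2 integrins and 3 myeloid transcription factors fell. With 2 control arrays, either decides many smaller calls, and genes near the lower quartile of intensity have only an approximate fold.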
